A study of Homo sapiens with 6 samples.

Results

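The 10 genes described here, IL6, CXCL8, CSF2, CSF3, IL11, LIF, CXCL1, CXCL2, IL1B and PTHLH, encode secreted inflammatory cytokines and factors tied to bone metastasis. They were picked by gene symbol, with earlier results of these data known, from the 60605 genes of an RNA-seq table, and all 10 had enough counts to be among the 14748 genes tested. The libraries came from MDA-MB-231, an established triple-negative breast cancer cell line. Cells stably carried a control hairpin (shControl, 3 libraries) or a hairpin against PUS1 (shPUS1, 3 libraries), and the question was which mRNAs differ when PUS1 is knocked down. In both groups the hairpin came from a lentiviral vector that confers puromycin resistance, selected cells were kept under puromycin, and the medium held fetal bovine serum and antibiotics. The shPUS1 columns of the deposited table carry the name knockdown-2, without a statement whether this number marks 1 of the PUS1 hairpins, and the selected cells were not described as single clones. PUS1 encodes pseudouridine synthase 1, which converts uridine to pseudouridine in tRNA and other RNAs.

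Poly(A) RNA was sequenced, and the depth was 15003203, 19625998 and 14241505 estimated counts for shControl replicates 1, 2 and 3 and 18233530, 18335152 and 17109464 for shPUS1 replicates 1, 2 and 3. Levels below are given as CPM (counts scaled to a common library total with TMM factors) or, where genes are compared with each other, as the deposited FPKM, which is per kilobase of exonic length. A gene was counted as changed when edgeR's quasi-likelihood test gave a Benjamini-Hochberg adjusted p under 0.05 over all genes tested together with at least a 2-fold difference. Fold changes are log2 values of shPUS1 relative to shControl. The cells carried the markers of their label. VIM, the intermediate filament of mesenchymal-like cells, averaged 1965 CPM and was the most abundant of 8 MDA-MB-231 markers, all of which were tested and none of which passed the threshold. The 8 summed to 5684, 7296 and 5698 CPM in shControl and 4764, 4515 and 4716 CPM in shPUS1, lower in every shPUS1 library, with VIM at -0.50, AXL at -0.60 and LGALS1 at -0.77 as log2 fold changes (adjusted p = 0.0873, 0.0623 and 0.0544), while EGFR was at 0.33 (adjusted p = 0.326) and KRT18 at -0.02 (adjusted p = 0.943). The part of this difference in the results was not tested. The luminal markers ESR1, PGR and FOXA1 reached at most 0.590, 0.223 and 0.0681 CPM in any library, but the list of 7 luminal markers summed to 66.7, 88.2 and 79.2 CPM in shControl and 69.8, 65.1 and 68.1 CPM in shPUS1. Most of this was ERBB2 (mean 58.5 CPM), GATA3 and EPCAM were at 5.17 to 7.81 CPM, and none of the list passed the threshold. Of 9 leukocyte and monocyte markers, CD3E and TYROBP had 0 counts in every library and PTPRC reached at most 0.136 CPM. The list summed to 6.09, 6.08 and 5.31 CPM in shControl and 4.17, 6.07 and 5.08 CPM in shPUS1, with CD14 the most abundant on average (mean 3.76 CPM) and CSF1R in shControl replicate 2 (4.04 CPM, compared with 1.99 for CD14).

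These secreted proteins form a network. Interleukin-1 beta, made as an inactive precursor that caspase-1 cleaves, activates NF-kB and AP-1 in the cells that receive it, and these transcription factors drive the genes of IL-6, IL-11, the CXCL chemokines and the colony-stimulating factors. Most of the mRNAs carry AU-rich elements in their 3′ UTRs, which bring in proteins that shorten or extend the life of the transcript. In breast cancer that spreads to bone, parathyroid hormone-related protein (the product of PTHLH), IL-11, IL-8 (the product of CXCL8) and IL-6 act on osteoblasts and osteoclasts, and the resorbed bone releases growth factors that act back on the tumour cells.

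The start of each gene and the part of its transcript that carries AU-rich elements are shown first, because these are the regulatory sequences best known in this family. RefSeq promoter windows (GRCh38.p14) matched 8 of the 10 genes by symbol, all but CSF3 and LIF. The windows printed below are the 250 bases before 1 RefSeq start per gene, and other starts of these genes were not searched. Shown are the 4 genes whose levels moved together between libraries (IL1B, CXCL8, IL6 and IL11) and the neighbouring chemokines CXCL1 and CXCL2. PTHLH, the gene of this group that rose, is shown as well. The windows of IL6 and PTHLH lie inside the genes by their deposited coordinates, which begin farther upstream, at 22725884 for IL6 and 27972733 for PTHLH. Capitals mark matches to 3 short motifs, GGANTTTCC for NF-kB and TGANTCA for AP-1, both searched on either strand, and TATAAA for the core promoter, searched on the sense strand. No match overlapped another.
IL1B, chr2:112836780-112837029, minus strand: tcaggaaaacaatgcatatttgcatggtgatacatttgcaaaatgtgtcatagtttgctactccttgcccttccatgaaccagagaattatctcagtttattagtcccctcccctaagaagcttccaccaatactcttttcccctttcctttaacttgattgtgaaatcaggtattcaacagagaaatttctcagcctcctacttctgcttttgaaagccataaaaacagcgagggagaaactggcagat
CXCL8, chr4:73740319-73740568, plus strand: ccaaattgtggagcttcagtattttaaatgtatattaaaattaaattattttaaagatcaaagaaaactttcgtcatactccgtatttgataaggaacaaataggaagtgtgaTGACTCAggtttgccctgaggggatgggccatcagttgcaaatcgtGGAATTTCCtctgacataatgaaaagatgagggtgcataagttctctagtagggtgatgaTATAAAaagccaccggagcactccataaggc
CXCL1, chr4:73869143-73869392, plus strand: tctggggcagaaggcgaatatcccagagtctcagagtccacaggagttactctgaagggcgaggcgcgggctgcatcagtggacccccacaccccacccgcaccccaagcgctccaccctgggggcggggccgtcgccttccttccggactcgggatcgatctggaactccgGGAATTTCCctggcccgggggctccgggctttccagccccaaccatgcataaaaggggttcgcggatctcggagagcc
CXCL2, chr4:74099196-74099445, minus strand: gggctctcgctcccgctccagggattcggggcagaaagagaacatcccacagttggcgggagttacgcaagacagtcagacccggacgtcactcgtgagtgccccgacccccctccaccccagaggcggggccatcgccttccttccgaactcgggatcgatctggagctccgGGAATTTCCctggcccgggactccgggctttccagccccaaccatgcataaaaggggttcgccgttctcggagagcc
IL6, chr7:22726950-22727199, plus strand: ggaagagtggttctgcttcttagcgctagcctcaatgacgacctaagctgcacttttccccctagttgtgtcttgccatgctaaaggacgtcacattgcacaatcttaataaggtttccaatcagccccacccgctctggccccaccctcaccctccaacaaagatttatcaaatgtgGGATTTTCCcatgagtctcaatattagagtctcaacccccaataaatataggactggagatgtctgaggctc
IL11, chr19:55370464-55370713, minus strand: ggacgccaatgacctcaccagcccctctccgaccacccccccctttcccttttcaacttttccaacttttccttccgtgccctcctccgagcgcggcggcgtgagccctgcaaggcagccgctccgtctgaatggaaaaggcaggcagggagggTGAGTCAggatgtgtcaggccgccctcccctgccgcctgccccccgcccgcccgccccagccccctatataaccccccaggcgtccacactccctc
PTHLH, chr12:27969977-27970226, minus strand: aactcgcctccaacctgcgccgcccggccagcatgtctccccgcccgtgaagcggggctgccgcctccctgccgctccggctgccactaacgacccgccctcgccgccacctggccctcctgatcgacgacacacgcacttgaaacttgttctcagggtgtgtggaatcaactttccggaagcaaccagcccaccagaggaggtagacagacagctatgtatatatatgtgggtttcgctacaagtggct

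The letters were counted over the full promoter windows, 250 bases before the start and 50 after it. The NF-kB letters were found in 4 of the 8 windows, those of CXCL8 (91 to 83 bases before the start), CXCL1 (78 to 70), CXCL2 (77 to 69) and IL6 (72 to 64), and in 1.64% of 35116 RefSeq promoter windows of the same length. The AP-1 letters were found in CXCL8 (137 to 131 bases before the start) and IL11 (96 to 90), 2 of 8 windows, and in 7.71% of all windows. The letters TATAAA were found in CXCL8 alone (31 to 26 bases before the start), and in 7.33% of all windows. The windows of IL1B, CSF2 and PTHLH held none of these letters. For identity the full promoter windows were aligned, which run on past the start of the gene, and columns with a gap were counted as not identical. CXCL1 and CXCL2 were identical at 69.8% of alignment columns, compared with 43.1% and 43.8% for CXCL8 against each of them. CXCL8, CXCL1 and CXCL2 lie in this order on chromosome 4 (GRCh38), with 125676 bases between CXCL8 and CXCL1 and 225731 between CXCL1 and CXCL2. A match is a description of the letters and not evidence of binding.

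In the 3′ UTR, the heptamer TATTTAT is the core of the AU-rich element. It was counted in the longest annotated 3′ UTR of each gene (GENCODE 29, GRCh38). The 30 bases of densest matches are printed for 6 genes, of which CSF3 fell in shPUS1 and the others were below the threshold, with each match in capitals.
CXCL8, chr4:73743109-73743138, plus strand: aaccTATTTATTATTTATgTATTTATttaa
CXCL2, chr4:74097585-74097614, minus strand: ttcTATTTATTTATTTATTTATTTATttgt
IL6, chr7:22731925-22731954, plus strand: aagaaaTATTTATattgTATTTATataatg
IL11, chr19:55365942-55365971, minus strand: cagatctTATTTATTTATTTATttcagtac
CSF2, chr5:132076075-132076104, plus strand: taaaaTATTTATTTATTTATTTATttaagt
CSF3, chr17:40016979-40017008, plus strand: atgTATTTATctctatttaaTATTTATgtc

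CXCL2 had 8 matches, CSF2 and IL11 7 each, LIF 5, IL1B, CXCL1 and CXCL8 4 each, and IL6 and CSF3 3 each. PTHLH had 0 matches to the heptamer in 1022 bases, although the shorter ATTTA occurred 7 times. At least 3 heptamers were thus present in 9 of the 10 genes, and in 7.1% of the 12558 tested genes with an annotated 3′ UTR. The 3′ UTRs of the 10 genes were not longer (median 787.5 bases, compared with 1369.5 for all tested genes).

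**Figure D1:**
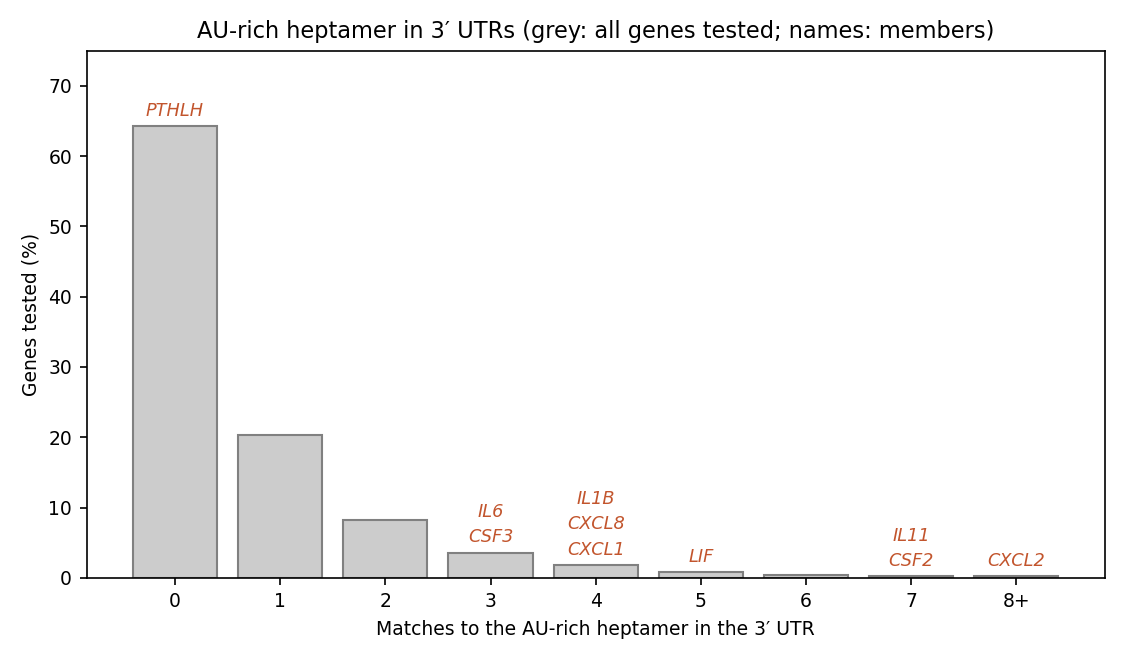
Share of tested genes (y axis, percent) by the number of AU-rich heptamers in the longest 3′ UTR (x axis, count). Grey bars are the 12558 tested genes with an annotated 3′ UTR, and names mark the column of each of the 10 genes, with PTHLH at 0 and the others at 3 or more.

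The knockdown was measured first. PUS1 was at 14.5, 27.5 and 12.1 CPM in shControl replicates 1, 2 and 3 and at 6.57, 5.47 and 5.37 CPM in shPUS1 replicates 1, 2 and 3. All shPUS1 libraries were below all shControl libraries, and shControl replicate 2 was the highest. This was a log2 fold change of -1.64 (SE, the standard error of the fit, 0.32, adjusted p = 0.0462 with edgeR), and -1.20 (adjusted p = 0.00311) without shControl replicate 2. The call was lost without shControl replicate 1 (adjusted p = 0.0906) and without each shPUS1 replicate (0.192 to 0.253), with limma on FPKM (0.0514 and 0.0544 at pseudocounts of 0.1 and 1) and with the replicate number as a block in edgeR (0.0969).

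shControl replicate 2 stood apart from the other libraries over all genes, with a Pearson's r of log2 CPM across genes of 0.951 and 0.952 with replicates 1 and 3, which had 0.981 with each other. The fold changes of the 10 genes are therefore given with and without it. In that library 4 of the cytokine mRNAs were far below their level in the other shControl libraries. IL6 was 7.25-fold lower than the mean of replicates 1 and 3, IL1B 5.53-fold, IL11 4.19-fold and CXCL8 4.002-fold. Ranks among all genes were taken on log2(CPM + 0.5), where these ratios are slightly smaller and that of CXCL8 was -1.99. Among 11034 genes with a mean of at least 5 CPM, 0.208% lay farther down than IL6, 0.335% farther than IL1B, 0.843% farther than IL11 and 0.979% farther than CXCL8, and 107 genes (0.970%) were at least 4-fold lower on this scale. The other genes of this group lay elsewhere. LIF was 1.08-fold, CXCL1 1.23-fold and CXCL2 1.89-fold lower in that library, while CSF3 was 1.17-fold, PTHLH 1.28-fold and CSF2 1.94-fold higher. Whether the state of that culture, its RNA or its library set these levels was not tested.

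**Figure D2:**
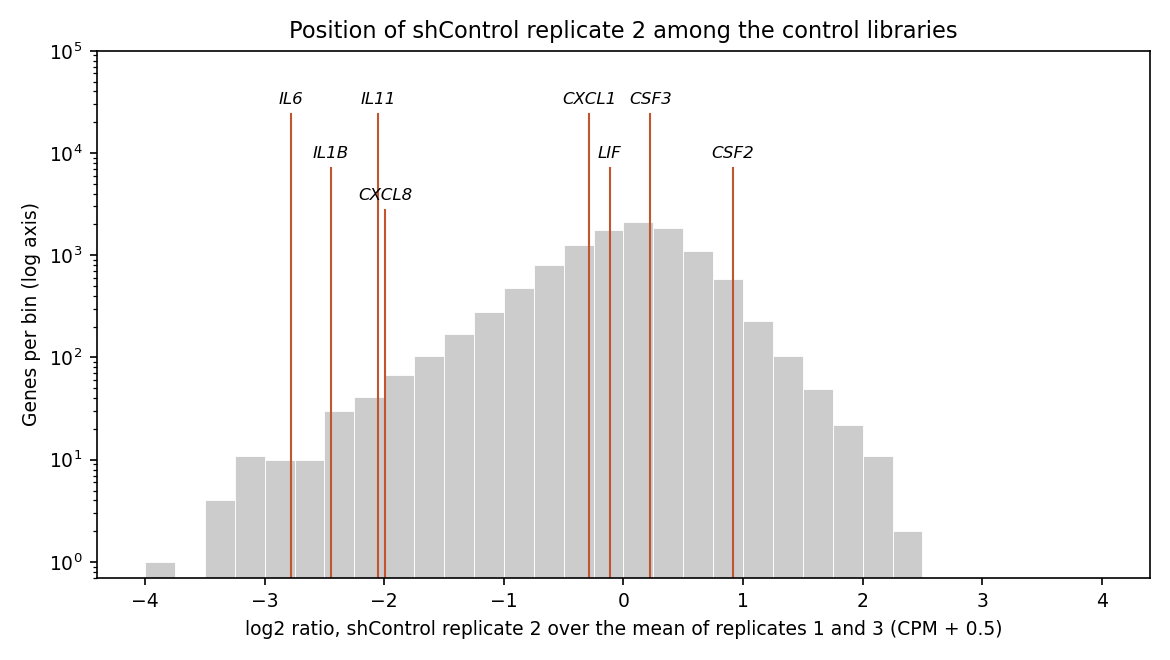
Number of genes (y axis, log scale) by the log2 ratio of shControl replicate 2 to the mean of shControl replicates 1 and 3 (x axis, CPM + 0.5), for 11034 genes with a mean of at least 5 CPM. Vertical lines mark the 8 genes of this group in that set, with IL6, IL1B, IL11 and CXCL8 in the left tail and CSF2 to the right.

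Of the 10 genes, 1 rose and 1 fell in shPUS1 cells. PTHLH rose 5.93-fold and CSF3, which encodes granulocyte colony-stimulating factor, fell to 0.46 of its control level. Among all genes tested 1.37% passed this threshold, 0.888% higher and 0.481% lower. The remaining 8 genes did not pass it, and an adjusted p alone, which 2.58% of genes reached, added none of them. Their log2 fold changes lay between -0.75 (CSF2) and 0.38 (IL1B), 7 of the 10 genes had a negative value, and the median of the 10 was -0.32 compared with -0.03 over all genes tested. Groups did not overlap for CSF2, CSF3 and CXCL1 (lower in all shPUS1 libraries, as in 17.3% of genes tested) and for PTHLH (higher, as in 18.8%). The libraries were labelled as biological replicates without a description of separate cultures, so that p measures the spread between these samples. In RNA from whole cultures, fewer cells that express a gene and less of its RNA per cell cannot be told apart.

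Without shControl replicate 2 the same 2 genes passed the threshold, which 3.28% of 15130 genes then did. At an adjusted p under 0.05 with no limit on the fold change, a count added after the data had been seen, 6 genes were lower (CSF3, IL6, CXCL8, IL11, CXCL1 and CXCL2) and PTHLH was higher, while 8.79% of all genes were lower and 9.80% higher, 18.6% together. The shPUS1 libraries were then below the 2 remaining shControl libraries for 8 genes, all but LIF and PTHLH, as in 25.7% of all genes, and above them for PTHLH, as in 25.3%. The median of the 10 genes was -0.57, compared with -0.02 over all genes. The mean of shControl replicates 1 and 3 was 2.07-fold the shPUS1 mean for CSF3, 1.97-fold for CXCL2, 1.83-fold for IL6, 1.64-fold for IL11 and 1.603-fold for CXCL8. It was 1.36-fold for CXCL1, 1.27-fold for CSF2 and 1.06-fold for IL1B, while the shPUS1 mean was 1.10-fold higher for LIF and 6.58-fold higher for PTHLH.

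The spread between libraries was unequal in the groups for some of the genes. In shControl the coefficient of variation of CPM was 72.0% for IL6, 65.1% for IL1B, 61.3% for CXCL8 and 60.0% for IL11, and in shPUS1 it was 10.6%, 1.10%, 6.29% and 2.79% for the same genes. The shPUS1 libraries were thus close to each other for these 4 genes, and in shControl replicate 2 lay far below the others. For CSF3 the values were 10.3% and 9.06%, for LIF 6.18% and 9.26%, and for CXCL1 12.0% and 5.24%, with no library far from the others of its group. CXCL2 (32.8% and 20.3%) and CSF2 (41.3% and 14.1%) lay between in shControl.

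**Figure D3:**
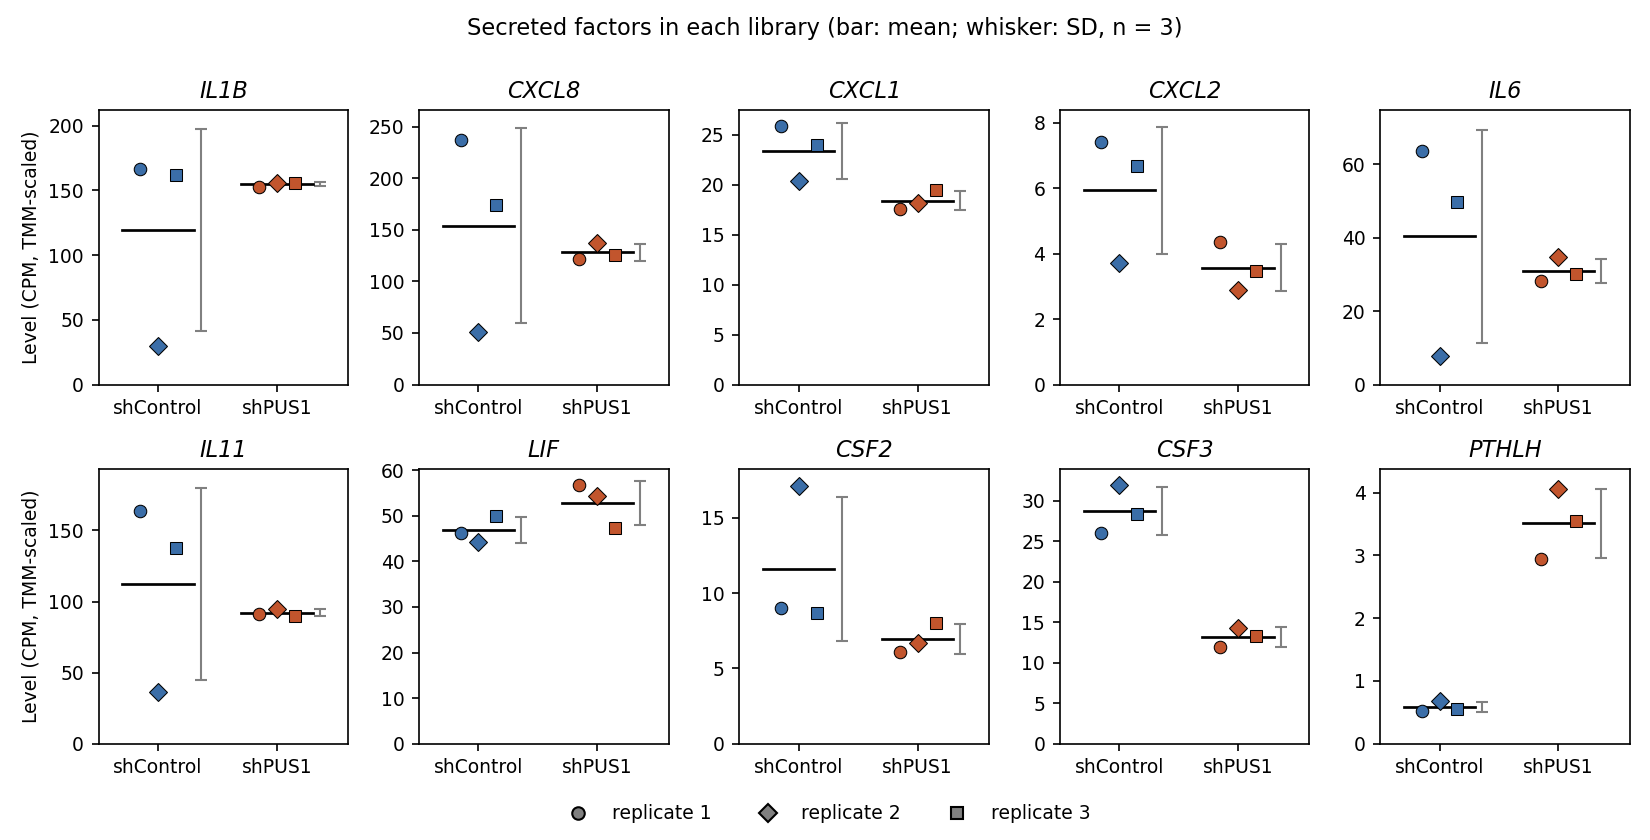
Level of each of the 10 genes (y axes, TMM-scaled CPM, each starting at 0) in the shControl and shPUS1 libraries. Points are single libraries, bars the mean and whiskers the SD of 3 libraries, and the low shControl point of IL1B, CXCL8, IL6 and IL11 is replicate 2.

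IL1B (ENSG00000125538, chromosome 2, 112829751 to 112836816) encodes the upstream cytokine of the group. Coordinates here are those of the deposited table, which matched GRCh38 genes of GENCODE 29 exactly for IL6 and CSF3 and overlapped them for the others. It was at 166.6, 29.7 and 162.1 CPM in shControl replicates 1, 2 and 3 and at 152.9, 156.0 and 155.6 CPM in shPUS1. The shPUS1 libraries were nearly level with each other and with shControl replicates 1 and 3, and shControl replicate 2 alone was low, so the groups overlapped. With all libraries the log2 fold change was 0.38 (SE 0.52, adjusted p = 0.678 with edgeR), and -0.09 (adjusted p = 0.468) without shControl replicate 2. IL1A, which encodes interleukin-1 alpha and signals through the same receptor, followed another course at 133.1, 18.3 and 113.3 CPM in shControl and 187.6, 210.7 and 197.0 CPM in shPUS1. It was also lowest in shControl replicate 2, but every shPUS1 library was above every shControl library. For IL1A the fit gave 1.17 on the log2 scale (adjusted p = 0.246), and 0.68 (adjusted p = 0.00553) without shControl replicate 2.

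CXCL8, CXCL1 and CXCL2 encode chemokines that attract neutrophils. CXCL8 (ENSG00000169429, chromosome 4, 73740541 to 73743716) was at 236.8, 51.3 and 173.6 CPM in shControl and at 121.5, 137.0 and 125.5 CPM in shPUS1. The shPUS1 libraries lay between shControl replicate 2 and the other shControl libraries. Its log2 fold change came to -0.26 (SE 0.45, adjusted p = 0.738), and -0.69 (adjusted p = 0.0118) without shControl replicate 2. CXCL1 (ENSG00000163739, chromosome 4, 73869393 to 73871308) was at 25.9, 20.3 and 24.0 CPM in shControl and at 17.5, 18.2 and 19.4 CPM in shPUS1. Its groups did not overlap, but shControl replicate 2 and shPUS1 replicate 3 lay close together. For CXCL1 the log2 fold change was -0.35 (SE 0.15, adjusted p = 0.199), and -0.45 (adjusted p = 0.0248) without shControl replicate 2. CXCL2 (ENSG00000081041, chromosome 4, 74097040 to 74099196) rested on 53 to 113 counts per library and was at 7.40, 3.72 and 6.68 CPM in shControl and at 4.34, 2.90 and 3.48 CPM in shPUS1. shControl replicate 2 lay among the shPUS1 libraries. For CXCL2 the log2 fold change was -0.73 (SE 0.32, adjusted p = 0.200), and -0.98 (adjusted p = 0.0175) without shControl replicate 2. Of the 100-base stretches of its transcripts, 5.0% occurred also in CXCL3, whose reads cannot be told apart there, and the other 9 genes shared no such stretch.

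IL6, IL11 and LIF encode cytokines that signal through the shared receptor subunit gp130. IL6 (ENSG00000136244, chromosome 7, 22725884 to 22732002) was at 63.6, 7.81 and 49.6 CPM in shControl and at 28.3, 34.6 and 30.1 CPM in shPUS1. As for CXCL8, the shPUS1 libraries were found between shControl replicate 2 and the other shControl libraries. Its log2 fold change came to -0.38 (SE 0.60, adjusted p = 0.718), and -0.88 (adjusted p = 0.00525) without shControl replicate 2. IL11 (ENSG00000095752, chromosome 19, 55364382 to 55370463) was at 164.0, 36.01 and 137.6 CPM in shControl and at 91.3, 95.1 and 90.1 CPM in shPUS1, in the same arrangement. For IL11 the log2 fold change was -0.29 (SE 0.46, adjusted p = 0.718), and -0.72 (adjusted p = 0.00408) without shControl replicate 2. IL6, CXCL8 and IL1B ordered the 6 libraries identically, with shControl replicate 1 highest and shControl replicate 2 lowest, and IL11 differed from them only in the order of shPUS1 replicates 1 and 3. LIF (ENSG00000128342, chromosome 22, 30240453 to 30246759) did not follow this order. It was at 46.1, 44.4 and 50.01 CPM in shControl and at 56.9, 54.3 and 47.4 CPM in shPUS1, with overlapping groups. Its log2 fold change came to 0.17 (SE 0.13, adjusted p = 0.419), and to 0.13 (adjusted p = 0.434) without shControl replicate 2.

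**Figure D4:**
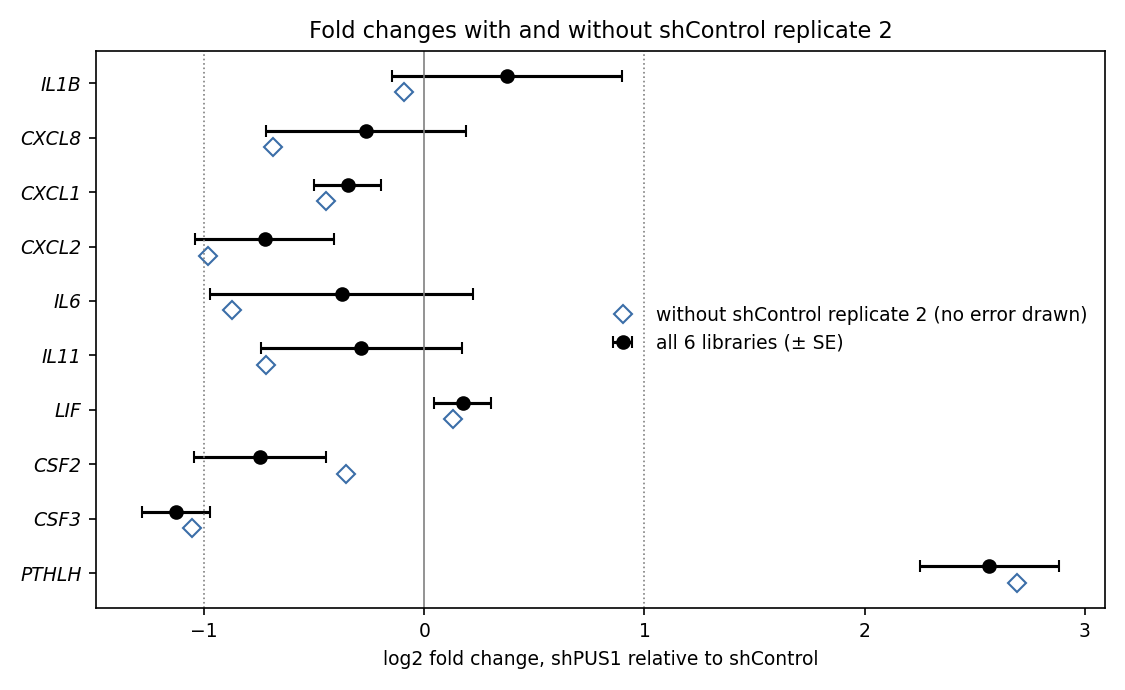
Log2 fold change of shPUS1 relative to shControl (x axis) for the 10 genes (y axis). Filled circles with bars are the values and standard errors from all 6 libraries, open diamonds the values without shControl replicate 2, and dotted lines the 2-fold limit, which CSF3 and PTHLH are beyond under both and which no other gene is.

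CSF2 and CSF3 encode granulocyte-macrophage and granulocyte colony-stimulating factor, which drive the production of myeloid cells. CSF3 (ENSG00000108342, chromosome 17, 40015361 to 40017813) was at 26.0, 31.9 and 28.4 CPM in shControl and at 11.9, 14.3 and 13.3 CPM in shPUS1. The groups lay well apart, shControl replicate 2 was not low here, and the spread was small in both groups (28.8 ± 2.96 and 13.2 ± 1.19 CPM, SD, n = 3 each). This fall was -1.13 as a log2 fold change (SE 0.15, adjusted p = 0.0248 with edgeR), and -1.05 (adjusted p = 0.00172) without shControl replicate 2. DESeq2 gave an adjusted p of 1.03e-06. The exact two-sided permutation test of its log2 CPM gave p = 0.1, the smallest that 3 libraries against 3 allow. CSF2 (ENSG00000164400, chromosome 5, 132073789 to 132076170) was at 9.03, 17.1 and 8.65 CPM in shControl and at 6.12, 6.68 and 8.03 CPM in shPUS1. The groups did not overlap, but shControl replicate 2 was high and shControl replicate 3 and shPUS1 replicate 3 were close. For CSF2 the log2 fold change was -0.75 (SE 0.30, adjusted p = 0.173), and -0.36 (adjusted p = 0.168) without shControl replicate 2. The call of CSF3 depended on the libraries used. Its adjusted p was 0.0681 without shControl replicate 1 and 0.171, 0.188 and 0.163 without shPUS1 replicates 1, 2 and 3, while its log2 fold change stayed between -1.20 and -1.05.

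PTHLH (ENSG00000087494, chromosome 12, 27958084 to 27972733) encodes parathyroid hormone-related protein, which acts on osteoblasts through the receptor PTH1R and raises bone resorption. It was at 0.524, 0.682 and 0.545 CPM in shControl, from 8, 13 and 8 counts, and at 2.95, 4.05 and 3.54 CPM in shPUS1, from 53, 74 and 60 counts. All shPUS1 libraries were above all shControl libraries, with similar coefficients of variation of 14.7% and 15.7%. The rise was 2.57 as a log2 fold change (SE 0.32, adjusted p = 0.0215 with edgeR), and 2.69 (adjusted p = 0.00225) without shControl replicate 2. DESeq2 gave an adjusted p of 3.67e-06, and the exact permutation test (two-sided, on log2 CPM) again p = 0.1. The adjusted p was 0.0790 without shControl replicate 1 and 0.143, 0.180 and 0.149 without shPUS1 replicates 1, 2 and 3, with log2 fold changes of 2.45 to 2.69 over all libraries left out. Even after the rise, PTHLH was the least abundant of the 10 mRNAs per length, at 1.02 ± 0.170 FPKM in shPUS1 and 0.170 ± 0.0173 FPKM in shControl (SD, n = 3 each).

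On the FPKM scale, CXCL8 was the most abundant of the 10 mRNAs in both groups, at 70.0 ± 43.6 FPKM in shControl and 56.7 ± 3.88 FPKM in shPUS1 (SD, n = 3 each). In shControl it was followed by IL11 (42.8), IL1B (40.5), IL6 (19.9), CXCL1 (17.3), CSF2 (14.7), CSF3 (13.02), LIF (12.2), CXCL2 (4.30) and PTHLH. Neighbours in this order overlapped in their ranges from CXCL8 down to LIF, CXCL2 lay below its neighbour LIF but overlapped IL6, and PTHLH lay below all genes before it. In shPUS1 the order was CXCL8, IL1B (51.0), IL11 (34.1), IL6 (14.9), LIF (13.5), CXCL1 (13.4), CSF2 (8.73), CSF3 (5.87), CXCL2 (2.53) and PTHLH. There, IL6, LIF and CXCL1 overlapped with each other, and all other neighbours in the order were separate.

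The genes whose pattern over the 6 libraries was most like that of CSF3 were TGFBI, ANKEF1 and THNSL1 (Pearson's r of log2 CPM 0.995, 0.994 and 0.993). For PTHLH they were SHTN1, RBPMS and ALCAM (0.998, 0.998 and 0.997). The search covered 10627 genes with a mean of at least 5 CPM, leaving out pseudogenes and genes without a symbol or with a clone, LINC or LOC name, and with 6 points that share 2 groups such values describe these libraries.

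The receptors of the 10 factors were partly expressed by the same cells. Of 13 receptor genes, 9 were tested, and none passed the threshold with edgeR or DESeq2 (4 at an unadjusted p under 0.05, which 25.5% of all genes had, median 0.45 compared with -0.03 over all genes tested, and 0.31 compared with -0.02 without shControl replicate 2). IL6ST, which encodes gp130, was the most abundant, at 347.4 ± 63.8 CPM in shControl and 473.1 ± 54.7 CPM in shPUS1 (SD, n = 3 each, log2 fold change 0.45, adjusted p = 0.153, and 0.53, adjusted p = 0.0417, without shControl replicate 2). CXCR1 and CXCR2, the receptors of CXCL8, and CSF3R, the receptor of CSF3, had 0 counts in every library, which allows at most 0.153 to 0.211 CPM per library (3 counts of the library total, counting error only). IL1R1, the signalling receptor of interleukin-1, was at 25.5 ± 7.52 and 47.1 ± 5.74 CPM (log2 fold change 0.89, adjusted p = 0.0792, and 0.65, adjusted p = 0.01, without that library). IL6R was at 10.2 ± 3.12 and 17.4 ± 1.85 CPM (0.78, adjusted p = 0.117, and 0.53, adjusted p = 0.0275, without it). Both had their lowest value in shControl replicate 2. PTH1R, the receptor of the PTHLH product, was at 1.70, 0.891 and 1.98 CPM in shControl and 0.723, 0.766 and 0.354 CPM in shPUS1. Its log2 fold change was -1.28 (adjusted p = 0.144), and -1.57 (adjusted p = 0.0314) without shControl replicate 2, where it was the 1 receptor past the threshold.

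Among 29 other secreted cytokines and chemokines, 17 were tested and none passed the threshold with edgeR (4 at an unadjusted p under 0.05, compared with 25.5% of all genes, median 0.12, and -0.13 without shControl replicate 2). CXCL3, a neutrophil chemokine like CXCL2, was at 4.02 ± 0.470 CPM in shControl and 2.09 ± 0.803 CPM in shPUS1 (log2 fold change -0.95, adjusted p = 0.143, and -0.998, adjusted p = 0.0759, without shControl replicate 2). CLCF1, a cytokine of the IL-6 family, was at 12.7 ± 4.46 and 23.9 ± 2.18 CPM (0.91, adjusted p = 0.0834). TNFSF10, which encodes the death ligand TRAIL, was at 49.7, 14.5 and 45.4 CPM in shControl and 13.4, 13.02 and 15.9 CPM in shPUS1 (-1.37, adjusted p = 0.1), and it was the 1 gene of this list that DESeq2 called (adjusted p = 0.00768) and that edgeR called with no filter on low counts (adjusted p = 0.0103). MIF had the highest FPKM of this list (277.4 in shControl and 235.8 in shPUS1, -0.21 on the log2 scale of the fit, adjusted p = 0.349). Without shControl replicate 2, 4 of 18 tested genes passed, compared with 3.28% of all genes, with CLCF1 higher (1.23) and TNFSF10 (-1.76), CCL20 (-1.56) and IL23A (-1.93) lower. CCL20 was at 10.8, 0.786 and 8.65 CPM in shControl and 3.23, 4.05 and 2.66 CPM in shPUS1, so the library left out was below every shPUS1 library. IL23A was near the floor, at 0.785, 0.577 and 0.681 CPM in shControl and 0.167, 0.1095 and 0.295 CPM in shPUS1. With all libraries it had too few counts to be tested. The deposited table assigns 366 genes to the pathway Cytokine-cytokine receptor interaction, a list that was chosen after the data had been seen and that holds 9 of the 10 genes, all but PTHLH. Of these, 145 were tested, with TGFB2 and IL27RA higher and CSF3 lower, 2.07% of the pathway compared with 1.37% of all genes tested. Without shControl replicate 2, 7 of 149 tested genes of the pathway were higher and 7 lower, where 3.28% of all genes passed. TGFB2 and CSF3 were still among them and IL27RA was not.

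The regulators of these genes were read from lists of their own, and none of the 18 NF-kB genes, 12 of 14 AP-1, ATF and C/EBP factors with enough counts, 15 JAK-STAT3 genes, 13 mRNA decay factors or 11 of 14 inflammasome and IL-1 processing genes passed the threshold with edgeR. Their medians were 0.04, 0.37, 0.00, -0.05 and -0.29, and 5, 6, 4, 2 and 4 of them had an unadjusted p under 0.05, as did 25.5% of all genes. With no filter on low counts edgeR called 2 of the AP-1, ATF and C/EBP factors, JUND among them (adjusted p = 0.00166). CYLD, a deubiquitinase that restrains NF-kB, had an adjusted p under 0.05 but less than a 2-fold difference (54.0 ± 7.53 and 96.3 ± 6.41 CPM, log2 fold change 0.84, adjusted p = 0.0371). BCL3 and NFKBIZ, atypical IkB proteins that act in the nucleus, had log2 fold changes of -0.73 and -0.43 (adjusted p = 0.104 and 0.118), and NFKBIA, the classical inhibitor, 0.20 (adjusted p = 0.453). JUND, an AP-1 subunit, was at 99.2 ± 32.3 and 217.3 ± 17.8 CPM (log2 fold change 1.13, adjusted p = 0.0529), the 1 gene of these lists that DESeq2 called (adjusted p = 0.000395), and JUN had 0.40 (adjusted p = 0.119). FOSL1, the most abundant AP-1 gene, had -0.39 (adjusted p = 0.242), and CEBPG, a C/EBP factor, 0.61 (adjusted p = 0.0922). SOCS2, a feedback inhibitor of cytokine receptors, had 0.71 (adjusted p = 0.0929), with the kinase JAK1 at 0.41 (adjusted p = 0.103) and MCL1, a survival factor of the BCL2 family, at -0.11 (adjusted p = 0.532). Of the genes that bind or degrade AU-rich mRNAs, TIA1 had -0.77 (adjusted p = 0.0849), ZFP36L1 0.46 (adjusted p = 0.208), ZC3H12C 0.42 (adjusted p = 0.168) and KHSRP -0.14 (adjusted p = 0.692). In the inflammasome list, GSDMD, the pore through which interleukin-1 beta leaves the cell, had -0.53 (adjusted p = 0.0846) and CASP8 -0.41 (adjusted p = 0.124), and AIM2, a sensor of cytosolic DNA, had -1.04 (adjusted p = 0.164).

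Without shControl replicate 2 no gene of these regulator lists passed the threshold either, and the list medians were 0.04, 0.25, -0.09, 0.13 and -0.33. The named regulators, most of which were chosen for a small p in the fit with all libraries, then had these log2 fold changes, with the adjusted p of edgeR in parentheses. BCL3 was at -0.94 (adjusted p = 0.00294), NFKBIZ at -0.53 (0.0126), CYLD at 0.72 (0.00340) and NFKBIA at 0.35 (0.0392). JUND was at 0.88 (0.00190), CEBPG at 0.44 (0.0238), SOCS2 at 0.74 (0.0293) and JAK1 at 0.33 (0.0453). TIA1 was at -0.53 (0.0208), GSDMD at -0.47 (0.0246) and CASP8 at -0.32 (0.0491). IL1A, of the inflammasome list, is given above. JUN was at 0.29 (0.0533), FOSL1 at -0.19 (0.326), MCL1 at -0.09 (0.479), ZFP36L1 at 0.24 (0.111), ZC3H12C at 0.31 (0.151) and AIM2 at -0.75 (0.199). KHSRP was at 0.13 (0.348), opposite in sign to its value with all libraries.

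Outside the 10 genes, 879 tested genes also had at least 3 AU-rich heptamers in the 3′ UTR. Of these, 1.48% were higher and 0.228% lower past the threshold, compared with 0.893% and 0.478% of all tested genes with an annotated 3′ UTR. Without shControl replicate 2 the shares were 2.50% higher and 1.02% lower, compared with 1.48% and 1.43%. The median log2 fold change of the 879 genes was 0.16, and 0.12 without shControl replicate 2, where the 10 genes had -0.32 and -0.57. In shControl replicate 2, 1.16% of those with a mean of at least 5 CPM were at least 4-fold below the other shControl libraries, compared with 0.877% of all. The genes share a motif by definition and are not independent of each other. They were not matched to the other genes for 3′ UTR length, and no test was made.

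Among 38 genes of bone metastasis and osteolysis, none of them in the group of 10, 30 were tested, 3 were higher and 1 was lower (13.3%, compared with 1.37% of all genes, median 0.31, and 0.14 without shControl replicate 2). The list was chosen with earlier results of these data known, so nothing is read from this share. CDH11, a cadherin of osteoblasts and mesenchymal cells, was at 2.75, 4.04 and 3.82 CPM in shControl and 11.7, 13.1 and 10.98 CPM in shPUS1 (log2 fold change 1.75, adjusted p = 0.0215). TGFB2, a ligand of the TGF-beta family, was at 160.2, 86.6 and 181.4 CPM in shControl and 346.8, 359.7 and 347.7 CPM in shPUS1 (1.3006, adjusted p = 0.0460). ADAMTS1, a secreted protease, rose by 1.18 on the log2 scale (adjusted p = 0.0409). NOG, which encodes the BMP antagonist noggin, fell from 63.7 ± 15.2 to 31.1 ± 2.08 CPM (-1.03, adjusted p = 0.0418). Without shControl replicate 2, CDH11, ADAMTS1, TGFB2 and BMP4 were higher and NOG was at -0.84, within the 2-fold limit. All 4 calls were lost without shControl replicate 1 (adjusted p of 0.0681 to 0.0950) and with any 1 of the shPUS1 replicates left out (0.138 to 0.244), and ADAMTS1 was also lost without shControl replicate 3 (0.0576). DESeq2 called the same 4 genes and BMP4. CCN2, a bone metastasis gene that is the most abundant of the list, was at 727.5 ± 356.8 and 851.3 ± 36.8 CPM (log2 fold change 0.23, adjusted p = 0.716), and its value was -0.14 without shControl replicate 2.

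**Figure D5:**
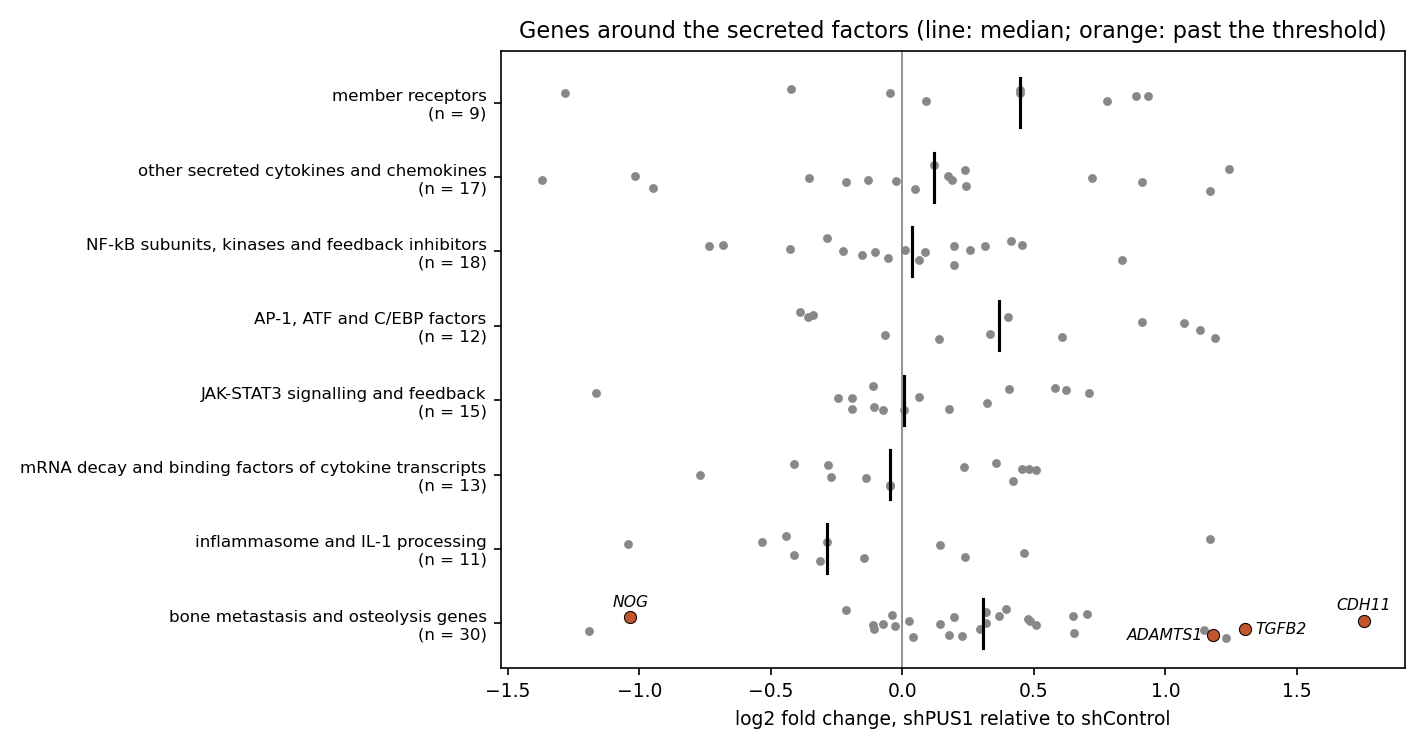
Log2 fold change of shPUS1 relative to shControl (x axis) of the tested genes in each of 8 lists around the 10 secreted factors (y axis). Points are genes, spread vertically for legibility, black lines are list medians and orange points pass the threshold, which 4 genes of the bone metastasis list and no gene of the other lists do.

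The 8 markers of fibroblasts and osteoblasts, of which 4 were tested and 1 passed the threshold, summed to 50.3, 17.1 and 61.2 CPM in shControl and 88.4, 98.01 and 85.2 CPM in shPUS1. PDGFRB was the most abundant (mean 40.6 CPM, 0.998 as a log2 fold change, adjusted p = 0.195), and LUM, a matrix proteoglycan gene, was the marker past the threshold (log2 fold change 2.82, adjusted p = 0.0462). LUM was low in shControl, at 1.11, 0.157 and 0.545 CPM, and at 3.45, 4.65 and 4.545 CPM in shPUS1. COL1A1 was at 14.4, 6.76 and 20.6 CPM in shControl and 28.7, 31.9 and 29.04 CPM in shPUS1 (1.11, adjusted p = 0.110), and COL3A1 reached at most 2.72 CPM (1.15, adjusted p = 0.349). The other markers of the list, COL1A2, DCN, BGLAP and ALPL, reached at most 0.274, 0.413, 0.367 and 0.118 CPM in any library. The 4 endothelial markers summed to 13.9, 4.72 and 16.8 CPM in shControl and 19.1, 22.1 and 18.4 CPM in shPUS1, and none passed the threshold. Most of this was KDR (mean 10.96 CPM, 1.12, adjusted p = 0.130), while PECAM1 was at 0.26, CDH5 at -0.37 and VWF at -0.23. Their part in the results was not tested.

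Overlap with genes on the other strand was small. STEAP1B and IL6-AS1 overlap IL6 (mean 0.641 and 0.137 CPM), LIF-AS1 and LIF-AS2 overlap LIF (0.0191 and 0.169 CPM), and a gene without a symbol at 0 counts overlaps PTHLH. The strandedness of the libraries is not given in the sources used here, so reads of such pairs cannot be told apart.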

How the data were processed

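RNA-seq of 3 shControl and 3 shPUS1 libraries of MDA-MB-231 cells was analysed. Per the study's methods, poly(A) libraries were sequenced as paired-end reads on a NovaSeq instrument, and the submitters' processing notes name HISAT2 and HTSeq 0.6.1. The genome build, annotation release, strandedness and treatment of multiply mapped reads are not given in the sources used here. The deposited table holds an estimated count for each gene and library, not normalized, of which 29.8% to 31.8% were not whole, and FPKM, which the authors computed from those counts, exonic length and library total. Library totals were 14241505 to 19625998 counts, and intervals cover counting error only.

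After rounding, low counts were removed with filterByExpr, TMM factors were computed and the groups were compared in edgeR 4.0.16 (quasi-likelihood test, prior count 0.125, R 4.3.3) with Benjamini-Hochberg adjustment over 14748 genes (adjusted p under 0.05 and a log2 fold change of at least 1 in size). The script was tested on simulated data with 200 changed genes. At the same threshold it recovered 68 of them at a log2 change of 1, 160 at 1.5 and 191 at 3. A gene that did not pass can therefore still have changed about 2-fold. DESeq2 1.42.0 and limma 3.58.1 (log2 of FPKM plus a pseudocount of 1 or 0.1, mean FPKM of at least 1 or 5) were alternatives, as were other scalings, no filter, a replicate block and leaving out each library. A prior count of 2, and the omission of shControl replicate 2 together with the fold limit, were chosen once the values were known. The 10 genes and the lists, written from general knowledge, were chosen with earlier results of these data known. Named genes were the 10 genes and PUS1, per list up to 4 genes past the threshold or else the 3 of smallest p, the gene of highest FPKM, and for CSF3 and PTHLH the 3 of highest correlation. CCL20, IL23A, BMP4, IL27RA and LUM were named after their values had been seen, and 1 gene that the rule names is not reported here. Residuals of libraries with the same replicate number had correlations of -0.05, -0.03 and -0.19, which gave no sign of pairing by number. With so few libraries such values cannot show whether libraries of the same number were prepared together. Promoters came from RefSeq and 3′ UTRs from GENCODE 29. Motifs were searched with Python 3.11.15.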

Additional observations from a re-analysis of the deposited data

How the results depend on the processing

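The 2 calls among the 10 genes, CSF3 and PTHLH, were the same with DESeq2, with DESeq2 size factors or library totals in edgeR, with no filter, and with a prior count of 2. With limma on FPKM 1 of them passed under each pseudocount and filter, since PTHLH lay below the filter. With a replicate block 0 passed (CSF3 -1.13, adjusted p = 0.0798, and PTHLH 2.57, adjusted p = 0.0693 with edgeR), and with libraries left out in turn 0 to 2. With no fold limit and without shControl replicate 2, 7 did. Directions of CSF3, CSF2, CXCL1, CXCL2, LIF and PTHLH held under every alternative run. IL6 turned to 0.057 with limma at a pseudocount of 0.1 and to 0.0080 at a pseudocount of 1 under both filters. With single libraries left out, IL6 ran from -0.88 to 0.12, CXCL8 from -0.69 to 0.19, IL11 from -0.72 to 0.089 and IL1B from -0.093 to 0.69, with KHSRP from -0.28 to 0.13 and CCN2 from -0.14 to 0.49. Over all genes the 202 calls became 495 with DESeq2 (255 higher and 240 lower, compared with 131 and 71), 536 with no filter, 112 with limma at a pseudocount of 0.1, 87 at a pseudocount of 1 (71 and 16), 52 with a mean FPKM of at least 5 (43 and 9), 18 with the block, 380 with no fold limit, 2813 with no fold limit and without shControl replicate 2, and 0 to 497 with single libraries left out. In the bone metastasis list the 4 calls became 1 or 2 with limma, 0 with the block and 0 to 4 with single libraries left out, and in the cytokine receptor pathway the 3 calls became 10 with DESeq2, 12 with no filter, 1 with library totals or with limma at a pseudocount of 0.1, 0 with the block and 0 to 14 with single libraries left out. The 0 calls over all genes were without shPUS1 replicate 3, where 2581 genes had an unadjusted p under 0.05 with edgeR, and no other tool was run on fewer libraries. No library correlated best with the one of its own number in the other group. The causes were not tested. PTHLH rests on 8 to 13 counts per shControl library, and a single cell line limits what the groups stand for.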
